A study of Homo sapiens with 4 samples.

Results

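Chemokines are small secreted proteins that attract leukocytes through G protein-coupled receptors, and 10 of their genes were followed here in the neuroblastoma cell line SK-N-SH. The genes were taken by symbol from a list of 10 names, and the counts of their transcripts were summed per gene: *CCL5*, *CXCL10* and *CXCL11*, which are known as interferon-responsive ligands, *CCL2*, *IL8*, *CXCL1*, *CXCL2* and *CXCL3*, which are known as inflammatory ligands, and *CXCL12* and *CX3CL1*. All 10 were found among the 57820 genes of the count table, and all 10 passed the filter on low counts, as 20528 genes did. The RNA-seq data of SK-N-SH, an established human line, comprise 2 libraries of cells that carry a lentivirus without insert (vector control) and 2 of cells that carry a lentivirus with the long noncoding RNA *RP5-998N21.4* (OE). Both groups were transduced, and the vector drives its insert from the EF1a promoter. The control libraries are titled WT but carry an empty-vector treatment label, which was followed. No source used here says that the libraries of a group came from separate cultures, so the p-values measure only the spread between these libraries, which may be technical.

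*CXCL10* and *CXCL11* bind the receptor CXCR3 on activated T cells and NK cells, and are textbook targets of interferon signalling. *CCL5* attracts T cells and monocytes and is a target of both interferon regulatory factors and NF-kB. *CCL2* attracts monocytes through CCR2, whereas IL8 (now named CXCL8) and the CXCL1, CXCL2 and CXCL3 proteins attract neutrophils through CXCR2, and their genes are classic NF-kB targets. CX3CL1 (fractalkine) is made as a membrane-anchored protein that is shed by proteases, and CXCL12 is a homeostatic ligand of CXCR4.

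Promoters of 7 of the 10 genes were held in a RefSeq table (GRCh38.p14), and each of the 7 was placed in GRCh37 (hg19), the build of the reads, by an exact match. *CCL2*, *CCL5* and *CX3CL1* were not among them. The bases just before the start are given for 4 genes that span the directions seen in the data, *CXCL10* and *CXCL11* (higher in OE), *CXCL1* (lower in OE) and *IL8* (overlapping between the groups), each written 5′ to 3′ along the strand of its gene. Capitals mark a match, on either strand, to 1 of 4 motifs: the interferon-stimulated response element (GAAA, any 2 bases, GAAA), the STAT site TTCNNNGAA, the NF-kB-type site GGAATTTCC (GGAAATTCC on the other strand), and the TATA box TATAAA. The *CXCL10* stretch is chr4:76944651-76944900 (minus strand), the *CXCL11* stretch is chr4:76957224-76957473 (minus strand), the *CXCL1* stretch is chr4:74734860-74735109 (plus strand), and the *IL8* stretch is chr4:74606036-74606235 (plus strand), which stops at the first annotated exon. The *IL8* stretch holds 200 of the 250 bases searched and ends short of the RefSeq start, from which all positions below are counted. The TATAAA match of *IL8* (bases 31 to 26 before that start) lies in the part not printed, inside the annotated gene.
CXCL10: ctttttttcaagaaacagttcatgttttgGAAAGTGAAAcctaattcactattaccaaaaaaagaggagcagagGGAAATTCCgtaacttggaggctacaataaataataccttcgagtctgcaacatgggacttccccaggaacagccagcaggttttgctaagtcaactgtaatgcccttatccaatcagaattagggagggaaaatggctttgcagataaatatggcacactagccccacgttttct
CXCL11: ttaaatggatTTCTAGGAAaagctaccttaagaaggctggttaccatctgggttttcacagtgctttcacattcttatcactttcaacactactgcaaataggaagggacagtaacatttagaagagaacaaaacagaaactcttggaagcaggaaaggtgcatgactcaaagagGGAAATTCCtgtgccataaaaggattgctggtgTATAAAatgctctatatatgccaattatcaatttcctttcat
CXCL1: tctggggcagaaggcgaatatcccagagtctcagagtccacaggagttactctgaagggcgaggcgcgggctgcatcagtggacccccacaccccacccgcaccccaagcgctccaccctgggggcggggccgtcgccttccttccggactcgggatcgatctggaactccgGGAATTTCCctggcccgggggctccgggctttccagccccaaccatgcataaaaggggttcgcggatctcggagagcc
IL8: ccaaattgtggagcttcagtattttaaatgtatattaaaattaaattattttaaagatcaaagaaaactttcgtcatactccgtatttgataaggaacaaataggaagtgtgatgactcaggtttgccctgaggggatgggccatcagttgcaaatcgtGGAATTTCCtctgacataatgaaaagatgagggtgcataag

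Within the 250 bases before the RefSeq start, the interferon-stimulated response element occurred in 1 of the 7 chemokine promoters, that of *CXCL10* (bases 221 to 212 before the start), and in 3.02% of all 35116 promoters in the table. The STAT site TTCNNNGAA occurred only in the promoter of *CXCL11* among the 7 (bases 240 to 232 before the start) and in 6.57% of all promoters. The sequence GGAATTTCC, on either strand, occurred in 6 of the 7, all but *CXCL12*, and in 0.413% of all promoters. These letters were searched because they are the known NF-kB site of *IL8*, a gene of the list, and *CXCL1*, *CXCL2* and *CXCL3* are its relatives, so the choice of letters partly fixes that count. It lay 78 to 70 bases before the start in *CXCL1* and *CXCL3*, 77 to 69 in *CXCL2*, 91 to 83 in *IL8*, 75 to 67 in *CXCL11* and 176 to 168 in *CXCL10*. In *CXCL3* the site lies inside the annotated gene, which begins at 74904524, before the RefSeq start. Thus the promoters with this sequence included genes that were higher in OE, lower in OE and overlapping. A looser NF-kB pattern (GGG, any 5 bases, CC), which overlaps it in part of the matches, was in 7 of 7 and in 54.4% of all promoters, and TATAAA was in 2 of 7 (*CXCL11* and *IL8*) and in 10.7% of all promoters. A match describes letters and not a bound site.

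The overexpressed gene was read first as a check of the labels. *RP5-998N21.4* went from 32 and 33 counts under the empty vector to 2407 and 2808 counts under OE (log2 fold change 6.11 ± 0.108, SE, with an edgeR adjusted p of 0.0109). Its size is uncertain, since reads may be shared with *RP11-439A17.9*, whose transcript is 99.4% identical and which went from 0 and 4 to 4515 and 5365 counts. Library totals ran from 23785164 to 28307591 counts, TMM scaling factors from 0.976 to 1.02 and mitochondrial shares from 6.01% to 6.50%. Levels are given in CPM, the count of a gene over the TMM-scaled size of its library, and the study's thresholds for a differentially expressed gene, an adjusted p below 0.01 with a log2 fold change beyond ±0.5, were used for calls.

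*CXCL10*, *CXCL11*, *CCL5* and *CX3CL1* were higher in both OE libraries than in both vector control libraries, *CCL2*, *CXCL1*, *CXCL2* and *CXCL3* were lower in both, and *IL8* and *CXCL12* overlapped between the groups. Of all tested genes, 27.8% were higher and 27.6% were lower in this non-overlapping way. With edgeR, 0 of the 10 genes were called at the study's thresholds, as were 0% of all tested genes. The overexpressed *RP5-998N21.4* was itself not called (adjusted p = 0.0109 with edgeR), so this 0 reflects the limit of the test and not a trait of the chemokine genes. At an unadjusted p under 0.05, 4 of the 10 were higher (10.1% of all tested genes) and 2 of the 10 were lower (10.7%). At an adjusted p under 0.05 and the same fold threshold, edgeR gave 3 of the 10, *CCL5* higher and *CCL2* and *CXCL1* lower, against 0.594% of all tested genes (0.283% higher, 0.312% lower). With DESeq2, the tool of the study's methods, 6 of the 10 met the study's thresholds, the 3 above plus *CXCL10*, *CXCL11* and *CX3CL1*, against 8.77% of all tested genes. The median log2 fold change of the 10 genes was −0.10, beside 0.01 over all tested genes, and moved to −0.06 with upper-quartile scaling, −0.04 without vector control replicate 2 and −0.00700 without OE replicate 2. With 2 libraries against 2, an exact two-sided permutation test of a single gene cannot go below p = 0.333.

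**Figure D1:**
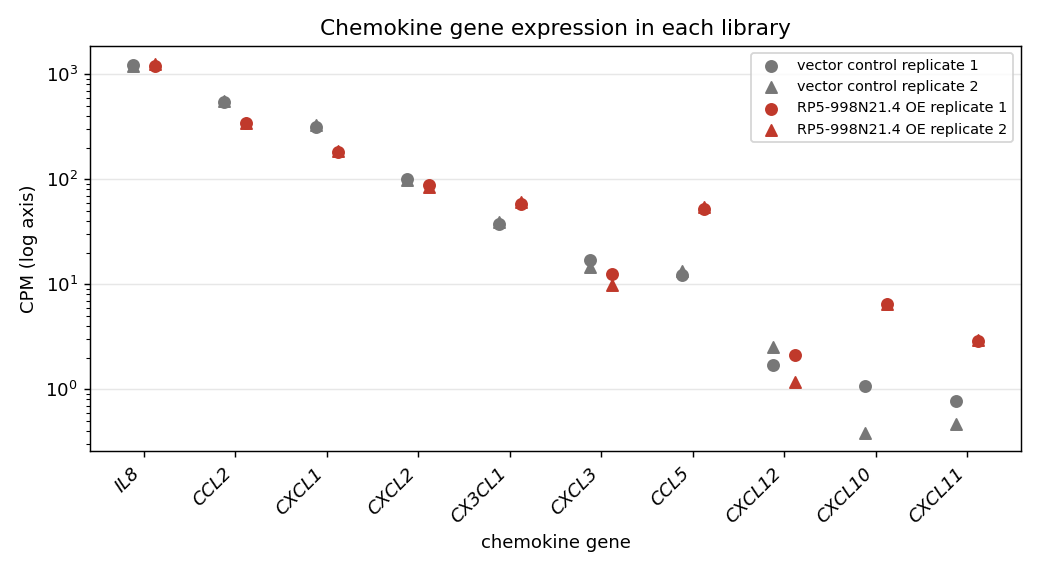
CPM of the 10 chemokine genes in each of the 4 libraries, on a log axis, with vector control in grey and OE in red, and with circles and triangles for replicates 1 and 2. The red points of CCL5, CXCL10, CXCL11 and CX3CL1 stand above the grey ones, those of CCL2, CXCL1, CXCL2 and CXCL3 stand below, and those of IL8 and CXCL12 overlap with grey.

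*CCL5* (ENSG00000161570.4, chromosome 17, 34198495 to 34207797, minus strand, GRCh37) had the smallest adjusted p of the 10 genes with edgeR, and *CCL2* with DESeq2. *CCL5* was at 12.4 and 13.4 CPM in the vector control libraries and at 52.1 and 54.4 CPM in the OE libraries. The OE libraries were both well above the control libraries, and the replicates of each group lay close together. The means were 12.9 ± 0.704 CPM (SD, n = 2) and 53.3 ± 1.65 CPM (SD, n = 2), a 4.14-fold difference. This gave a log2 fold change of 2.05 (SE 0.104, as for every value so marked the error of the fitted fold change, 95% interval 1.75 to 2.35, adjusted p = 0.0310 with edgeR's quasi-likelihood test). All of its counts, 288 and 314 against 1307 and 1574, fell on 1 of its 3 listed transcripts.

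*CXCL10* (ENSG00000169245.4) had the largest fold change of the 10 genes, from a very low base. Counts were 25 and 9 in the controls against 164 and 188 in OE, that is 1.07 and 0.383 CPM against 6.54 and 6.50 CPM. The OE replicates were nearly equal, whereas the control replicates differed 2.80-fold. Its log2 fold change came to 3.15 (SE 0.519, 95% interval 1.67 to 4.64, adjusted p = 0.0984 with edgeR), an 8.90-fold difference. Leaving out vector control replicate 1, with 25 counts, moved it to 4.07, leaving out vector control replicate 2, with 9 counts, moved it to 2.59, and leaving out either OE replicate left it at 3.15 and 3.16.

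*CXCL11* (ENSG00000169248.8), the neighbour of *CXCL10* on chromosome 4 and a ligand of the same receptor, followed it. Counts were 18 and 11 in the controls against 72 and 86 in OE, or 0.773 and 0.468 CPM against 2.87 and 2.97 CPM. Both OE libraries were above both controls. Its log2 fold change was 2.23 (SE 0.331, 95% interval 1.28 to 3.17, adjusted p = 0.0893 with edgeR), a 4.68-fold difference. *CXCL10* lies at 76942271 to 76944650 and *CXCL11* at 76954835 to 76962568, both on the minus strand within *ART3* on the plus strand, with which they share no exon. The third CXCR3 ligand gene, *CXCL9*, had 0, 0, 4 and 0 counts in vector control 1, vector control 2, OE 1 and OE 2 and was too low to test.

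The ratio of *CXCL10* to *CXCL11* was also higher in both OE libraries. *CXCL10* counts were 1.39 and 0.818 times those of *CXCL11* in the vector control libraries and 2.28 and 2.19 times in the OE libraries. The summed level of both genes was 1.85 and 0.851 CPM in the vector control and 9.41 and 9.47 CPM in OE. The ratio in the control rests on 9 to 25 counts per gene and library, and its difference between groups was not tested.

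*CX3CL1* (ENSG00000006210.6, chromosome 16, 57406389 to 57418956, plus strand) was moderately higher in OE. It was at 37.4 and 39.2 CPM in the vector control libraries and at 57.7 and 60.1 CPM in the OE libraries. The 2 groups were separated by far more than their replicates. On the log2 scale the difference was 0.62 (SE 0.0908, 95% interval 0.36 to 0.88, adjusted p = 0.0888 with edgeR), a 1.54-fold difference that stayed between 0.58 and 0.65 on the log2 scale when 1 library was left out.

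**Figure D2:**
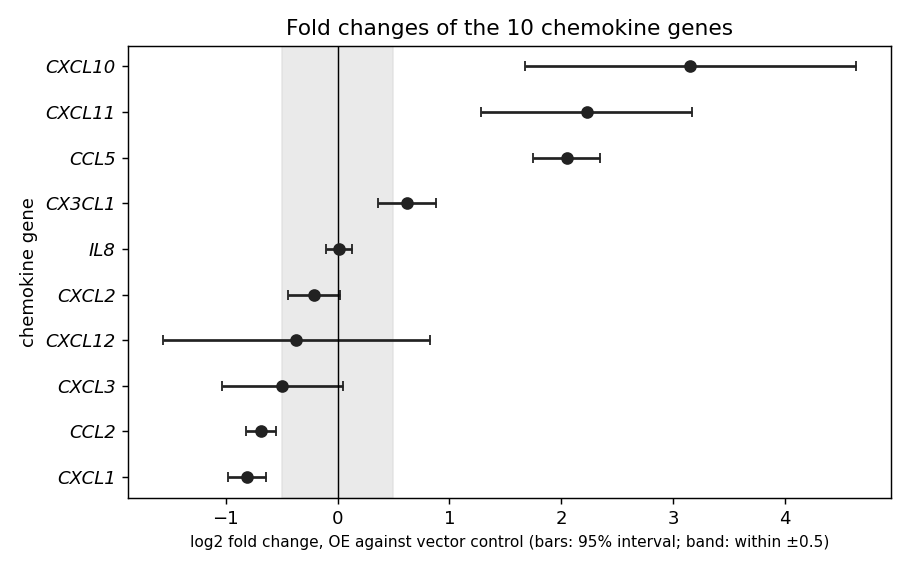
Log2 fold change of OE against vector control for the 10 chemokine genes from edgeR (points) with 95% intervals (bars), and a grey band within ±0.5. The intervals of CXCL10, CXCL11 and CCL5 lie above the band, those of CCL2 and CXCL1 lie below it, that of CX3CL1 is above 0 and reaches into the band, and the other 4 cross 0.

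*CCL2* (ENSG00000108691.5, chromosome 17, 32582293 to 32584227, plus strand), the monocyte chemoattractant, was lower in OE. It was at 549.9 and 558.4 CPM in the vector control libraries and at 344.8 and 346.0 CPM in the OE libraries. The groups did not overlap, and the replicates within each were nearly equal. On the log2 scale the difference was −0.68 (SE 0.0473, 95% interval −0.82 to −0.55, adjusted p = 0.0440 with edgeR), and the OE mean was 0.623 times that of the control. Of its counts, 12803, 13120, 8537 and 10006 (vector control 1, vector control 2, OE 1, OE 2) fell on the transcript ENST00000582017.1, while ENST00000225831.4 took 114 counts in OE replicate 1 and 1 count in each other library. Since *CCL5* was higher and *CCL2* lower, *CCL5* counts came to 2.25% and 2.39% of those of *CCL2* in the vector control libraries and to 15.1% and 15.7% in the OE libraries.

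Of the neutrophil-attracting ligands among the 10 genes, *CXCL1* (ENSG00000163739.4, chromosome 4, 74735110 to 74737025, plus strand) was lower in OE to the greatest extent. It was at 315 and 330 CPM in the vector control libraries and at 183 and 185 CPM in the OE libraries. The groups did not overlap. For *CXCL1* the log2 fold change was −0.81 (SE 0.0605, 95% interval −0.98 to −0.64, adjusted p = 0.0481 with edgeR), and the OE mean was 0.571 times that of the control.

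*CXCL3* and *CXCL2*, its close relatives on the minus strand of the same region (74902306 to 74904524 and 74962757 to 74964913), were lower in both OE libraries but did not pass the test. *CXCL3* was at 17.2 and 14.5 CPM in the vector control and 12.6 and 9.92 CPM in OE, with a log2 fold change of −0.50 (SE 0.190, 95% interval −1.04 to 0.05, adjusted p = 0.266 with edgeR). *CXCL2* was at 101 and 98.9 CPM in the vector control and 88.8 and 84.1 CPM in OE, with a log2 fold change of −0.21 (SE 0.0804, 95% interval −0.44 to 0.02, adjusted p = 0.265 with edgeR). The interval of *CXCL2* lay above that of *CXCL1*, and the difference between the genes was not tested. The summed level of the 3 genes was 434 and 443 CPM in the vector control and 284 and 279 CPM in OE, and the share of *CXCL1* in that sum went from 72.7% and 74.4% to 64.4% and 66.3%.

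The counts of these 3 genes are uncertain to the extent that the mapping could not place shared reads. The counted transcripts of *CXCL1* and *CXCL2* were 91.0% identical over 1094 aligned positions and shared 3 windows of 75 nt, those of *CXCL2* and *CXCL3* were 85.0% identical and shared 23 such windows, and those of *CXCL1* and *CXCL3* were 84.6% identical and shared 0. The paired reads described in the paper are longer than these windows, so a shared window does not by itself make a read ambiguous. *CXCL10* and *CXCL11* were 75.2% identical and shared 0 windows. Identity was counted over aligned bases without gaps, and by this measure *CXCL10* and *IL8* reached 75.2% and *CXCL11* and *IL8* 75.9%. The value for *CXCL10* and *CXCL11* therefore does not mark a close relation.

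*IL8* (ENSG00000169429.6, chromosome 4, 74606236 to 74609433, plus strand) overlapped between the groups while *CXCL1* and *CCL2* were lower in OE. It was at 1222 and 1195 CPM in the vector control libraries and at 1200 and 1242 CPM in the OE libraries, with no order between the groups. The fitted log2 difference was 0.01 (SE 0.0409, 95% interval −0.10 to 0.13, adjusted p = 0.879 with edgeR). As a share of the summed CPM of the 10 genes, which was 2259 and 2253 in the vector control and 1950.2 and 1992 in OE, *IL8* took 54.1% and 53.1% in the vector control and 61.5% and 62.3% in OE.

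*CXCL12* (ENSG00000107562.12, chromosome 10, 44865613 to 44881941, minus strand) was low in all libraries, at 1.72 and 2.51 CPM in the vector control and 2.11 and 1.18 CPM in OE. Its replicates spread as widely as its groups. The fitted log2 difference was −0.37 (SE 0.418, 95% interval −1.56 to 0.83, adjusted p = 0.674 with edgeR), and a difference was not detectable at 34 to 59 counts per library.

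Per length, *CCL2*, *IL8*, *CXCL1* and *CXCL2* led the list in both groups. In CPM per kilobase of the canonical transcript, the vector control means were 748 for *CCL2*, 736 for *IL8*, 275 for *CXCL1*, 89.7 for *CXCL2*, 14.7 for *CXCL3*, 11.7 for *CX3CL1* and 9.90 for *CCL5*, followed by 1.10 for *CXCL12*, 0.620 for *CXCL10* and 0.420 for *CXCL11*. In this order, the replicate ranges of *CCL2* and *IL8*, of *CXCL12* and *CXCL10*, and of *CXCL10* and *CXCL11* overlapped. In OE, the means per kilobase were 743 for *IL8*, 466 for *CCL2*, 157 for *CXCL1*, 77.6 for *CXCL2*, 41.0 for *CCL5*, 17.9 for *CX3CL1*, 10.5 for *CXCL3*, 5.55 for *CXCL10*, 1.98 for *CXCL11* and 0.853 for *CXCL12*, and no neighbouring ranges overlapped. On this scale *CCL5* stood at place 7 in the vector control and at place 5 in OE, *CXCL3* at place 5 and then at place 7, and the CXCR3 ligands far below *CCL2* and *IL8* in both groups. The canonical transcript was not the counted one for 3 genes, so their places are uncertain. For *CXCL12* the counted transcript has 3532 nt against the 1928 nt used, and for *CCL2* (741 nt used) and *CCL5* (1299 nt used) the length of the transcript with most counts was not known from the annotation.

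Over all tests, filters and scalings tried, the fold changes of the 9 genes other than *IL8* kept their direction, as the plot of fold changes under each alternative shows. At an adjusted p under 0.05, *CCL5*, *CCL2* and *CXCL1* lost their calls when any 1 of the 4 libraries was left out. Their adjusted p (edgeR) then lay between 0.0833 and 0.0999, between 0.110 and 0.123, and between 0.116 and 0.141. These fits leave 1 library in a group, which is assumed to vary like the other group. The log2 fold changes stayed at 1.988 to 2.101, −0.70 to −0.68 and −0.85 to −0.78. The 3 calls were also lost when each gene was read from its most counted transcript alone (adjusted p = 0.0546, 0.0546 and 0.0605 with edgeR). *CXCL1* lost its call with upper-quartile scaling (adjusted p = 0.0504 with edgeR) and with a minimum of 1 count in total (adjusted p = 0.0629 with edgeR).

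**Figure D3:**
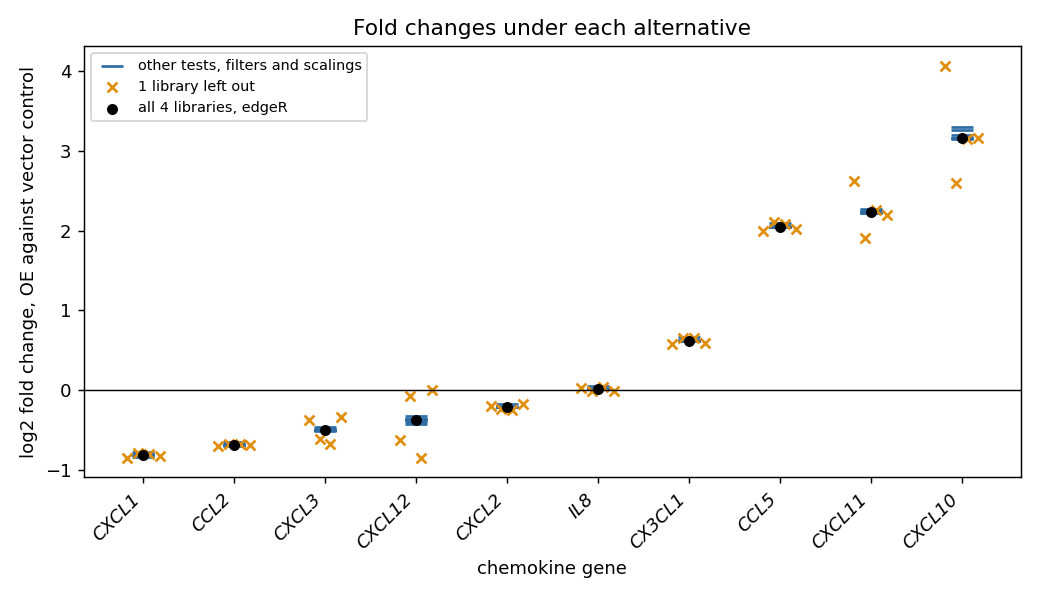
Log2 fold change of the 10 chemokine genes with all 4 libraries (black points), with 1 library left out (orange crosses) and under other tests, filters and scalings (blue dashes). CXCL10 spreads from 2.59 to 4.07 and CXCL12 from −0.84 to −0.00247 with 1 library left out, CXCL11 spreads from 1.91 to 2.62 and CXCL3 from −0.67 to −0.34, and IL8 crosses 0.

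Among the genes whose pattern over the 4 libraries was most like that of *CXCL10*, the nearest were *ELFN1*, *RP11-592B15.4*, *PPP1CB*, *DMGDH* and *KLHDC7B*, at Euclidean distances of 0.328, 0.563, 0.614, 0.678 and 0.694 between centred log2 CPM profiles. Of 17600 genes averaging 1 CPM or more, *CXCL11* stood at place 30, *CCL5* at place 74 and *CX3CL1* at place 1580 by this measure. *PPP1CB*, which encodes a catalytic subunit of protein phosphatase 1, was at 70.3 and 15.7 CPM in the vector control and 265 and 300.4 CPM in OE, so its control replicates differed more than those of *CXCL10*. The profiles share the same 4 libraries, and the likeness is a description.

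Of 38 other chemokine ligand genes, 5 were expressed highly enough to test. Of the 33 others, 27 were at 0 in all libraries, below a limit of 3 counts or 0.104 to 0.129 CPM per library, and the highest had 11 counts in a library. At an unadjusted p under 0.05, 1 of the 5 was higher and 2 were lower in OE, beside the 10.1% and 10.7% of all tested genes given above, and 0 had an adjusted p under 0.05 with edgeR. The 2 lower ones, *CXCL5* and *CXCL6*, are further CXCR2 ligands. *CXCL5* was at 148 and 143 CPM in the vector control and 86.8 and 82.9 CPM in OE, with a log2 fold change of −0.78 (SE 0.0767, adjusted p = 0.0629 with edgeR). *CXCL6* was at 83.2 and 82.4 CPM in the vector control and 41.3 and 48.7 CPM in OE, with a log2 fold change of −0.88 (SE 0.119, adjusted p = 0.0800 with edgeR). Their log2 differences were thus near the −0.81 of *CXCL1*. The higher one, *CCL20*, a CCR6 ligand, was at 4.04 and 4.43 CPM in the vector control and 6.62 and 9.44 CPM in OE, with a log2 fold change of 0.92 (SE 0.242, adjusted p = 0.168 with edgeR), and it passed the unadjusted threshold without OE replicate 1 but not without any of the other 3 libraries.

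The receptors of these ligands were mostly not detected. Of 23 chemokine receptor genes, 4 were tested, 14 were at 0 in all libraries, and the highest of the 19 untested genes had 14 counts in a library. *CXCR3*, *CCR2* and *CX3CR1*, which encode the receptors of CXCL10 and CXCL11, of CCL2 and of CX3CL1, were at 0 throughout, and *CXCR2* had 0, 5, 0 and 0 counts. *CXCR4*, the receptor gene of CXCL12, was detected, at 7.30 and 7.06 CPM in the vector control and 9.64 and 9.68 CPM in OE. Its log2 fold change was 0.43 (SE 0.129, adjusted p = 0.202 with edgeR), and its unadjusted p (edgeR) was no longer under 0.05 when any 1 of the 4 libraries was left out, at 0.0905 to 0.113. The other 3 tested receptors, *CCR10*, *CXCR6* and *ACKR4*, had log2 fold changes of 0.10, 0.21 and 0.18, whose signs were not fixed when 1 library was left out (−0.30 to 0.41, −0.16 to 0.71 and −0.28 to 0.83).

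Of 23 regulators of chemokine transcription, 20 were tested, with 2 higher and 5 lower in OE at an unadjusted p under 0.05 (10.1% and 10.7% of all tested genes) and 0 at an adjusted p under 0.05 with edgeR. The higher ones included *STAT2*, a component of interferon signalling, at a log2 fold change of 0.28 (adjusted p = 0.169 with edgeR). The lower ones were *TNFAIP3*, *NFKBIA*, *IL1B*, *EGR1* and *IRF9*. *TNFAIP3*, a negative regulator of NF-kB signalling that is itself an NF-kB target, was at 66.9 and 63.2 CPM in the vector control and 28.3 and 32.9 CPM in OE, a log2 fold change of −1.09 (SE 0.121, adjusted p = 0.0693 with edgeR). *NFKBIA*, which encodes an inhibitor of NF-kB, had a log2 fold change of −0.30. *IL1B*, a cytokine that induces *IL8* and *CXCL1* in many cells, was at 142 and 146 CPM in the vector control and 82.3 and 93.3 CPM in OE, a log2 fold change of −0.71 (SE 0.0977, adjusted p = 0.0808 with edgeR).

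Among the rest of these regulators, *IRF9*, which encodes a DNA-binding component of interferon signalling, was at 24 and 21 counts against 5 and 8 in OE without passing the adjusted threshold (adjusted p = 0.128 with edgeR). The NF-kB subunit gene *RELA* was at 886 and 3475 counts against 3925 and 4311 in OE, so its control replicates did not agree. *TNF* and *IFNG* were at 0 throughout, and *IFNB1*, which encodes interferon beta, had 0, 2, 13 and 0 counts in vector control 1, vector control 2, OE 1 and OE 2. The number of higher regulators was 0 without vector control replicate 1, 3 without vector control replicate 2 and 1 without either OE replicate, and the number of lower ones was 4 to 5. The median log2 fold change of the 20 genes was −0.04, beside 0.01 over all tested genes. It had no fixed sign, since leaving out OE replicate 1 gave −0.16, leaving out vector control replicate 2 gave 0.06 and leaving out OE replicate 2 gave 0.16.

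Of 7 genes for proteins that act on the decay of chemokine mRNA, all were tested, with 2 higher and 1 lower in OE at an unadjusted p under 0.05, beside 10.1% and 10.7% of all tested genes. *ZC3H12A*, which encodes an RNase that degrades inflammatory mRNAs, was at 128.8 and 121 CPM in the vector control and 65.6 and 60.6 CPM in OE. Its log2 fold change was −0.99 (SE 0.0916, adjusted p = 0.0615 with edgeR). *ZFP36L2* and *ZFP36L1*, which encode proteins that bind AU-rich elements, had log2 fold changes of 0.43 and 0.50 (adjusted p = 0.0707 and 0.238 with edgeR). The higher ones numbered 1 without vector control replicate 1, vector control replicate 2 or OE replicate 1, and the lower ones numbered 2 without OE replicate 1.

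Of 14 genes that cleave chemokines or present them on heparan sulfate, 13 were tested, with 2 higher and 5 lower in OE at an unadjusted p under 0.05 (10.1% and 10.7% of all tested genes) and 0 at an adjusted p under 0.05 with edgeR. The proteases that shed CX3CL1 from the membrane differed in direction. *ADAM10* was at 177 and 162 CPM in the vector control and 119 and 121 CPM in OE, a log2 fold change of −0.50 (SE 0.0801, adjusted p = 0.0970 with edgeR). *ADAM17* was at 116 and 138 CPM in the vector control and 156 and 173 CPM in OE, a log2 fold change of 0.37 (SE 0.124, adjusted p = 0.224 with edgeR). *DPP4*, whose product trims the N-terminus of CXCL10, CXCL11 and CXCL12, was at 9.75 and 10.9 CPM in the vector control and 4.30 and 4.84 CPM in OE, a log2 fold change of −1.17 (SE 0.159, adjusted p = 0.0800 with edgeR).

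The remaining genes of that list past the unadjusted threshold were *MMP9*, which encodes a secreted metalloproteinase, at a log2 fold change of 0.53, the syndecan genes *SDC1* and *SDC3* at −0.21 and −0.53, and the heparan sulfate sulfotransferase gene *HS2ST1* at −0.55. The higher ones numbered 0 without vector control replicate 1, 3 without vector control replicate 2, 1 without OE replicate 1 and 0 without OE replicate 2, and the lower ones 4 to 5.

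SK-N-SH is known to hold adrenergic (noradrenergic) and mesenchymal cells. Of 9 adrenergic markers, 8 were tested and all 8 were higher in both OE libraries than in both controls (27.8% of all tested genes), 6 of them at an unadjusted p under 0.05 (10.1% of all tested genes). Their summed level was 456 to 524 CPM in the vector control and 850 to 892 CPM in OE, and the median log2 fold change was 0.99. *CHGA*, which encodes chromogranin A, had a log2 fold change of 1.39 (adjusted p = 0.0449 with edgeR), and *TH* was at 0 in all libraries. Of 6 mesenchymal markers, 0 were higher and 3 were lower at an unadjusted p under 0.05 (10.1% and 10.7% of all tested genes), with *CD44* at −0.71 (adjusted p = 0.0615 with edgeR), *PRRX1* at −0.64 and *YAP1* at −0.27.

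The summed level of the mesenchymal markers was 2927 to 3043 CPM in the vector control and 1894 to 3411 CPM in OE, so the groups overlapped, and *VIM* had 31466 counts in OE replicate 1 and 8111, 8217 and 10869 counts in vector control 1, vector control 2 and OE 2. The lower ones numbered 3 without vector control replicate 1, 2 without vector control replicate 2, 4 without OE replicate 1 and 2 without OE replicate 2, and 1 was higher without OE replicate 2. The part of these marker levels in the chemokine values was not tested. In bulk RNA, fewer cells of a type and less RNA per cell cannot be told apart.

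Markers of other cell types were low or at 0. Of 8 leukocyte markers, *CD3E* and *LYZ* were among those at 0, and *PTPRC* (CD45) had 0, 0, 0 and 4 counts. *ITGAM*, also on that list, was at 0 in each control library but reached 8 counts in OE replicate 1 and 4 in OE replicate 2. Its direction was thus that of *CXCL10*, *CXCL11* and *CCL5*, at a level too low to test. The summed level of the leukocyte list was 11.9 to 12.2 CPM in the vector control and 1.87 to 6.57 CPM in OE, and in every library but OE replicate 1 it was mostly *CD68*, a lysosomal gene that is not specific to leukocytes, with 240, 237, 2 and 126 counts. The monocyte markers *CD14* and *CSF1R* had 25, 25, 15 and 34 counts and 20, 17, 22 and 22 counts, beside the 25 and 9 counts of *CXCL10* and the 18 and 11 counts of *CXCL11* in the vector control, and the groups of both markers overlapped. The part of leukocyte marker levels in the chemokine values was not tested. Of 4 endothelial markers, 3 were matched by symbol, these, *CDH5*, *VWF* and *KDR*, were at 0 in all libraries. Of 3 epithelial markers, *KRT5* and *CDH1* were at 0 and *EPCAM* had 15, 30, 12 and 8 counts.

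**Figure D4:**
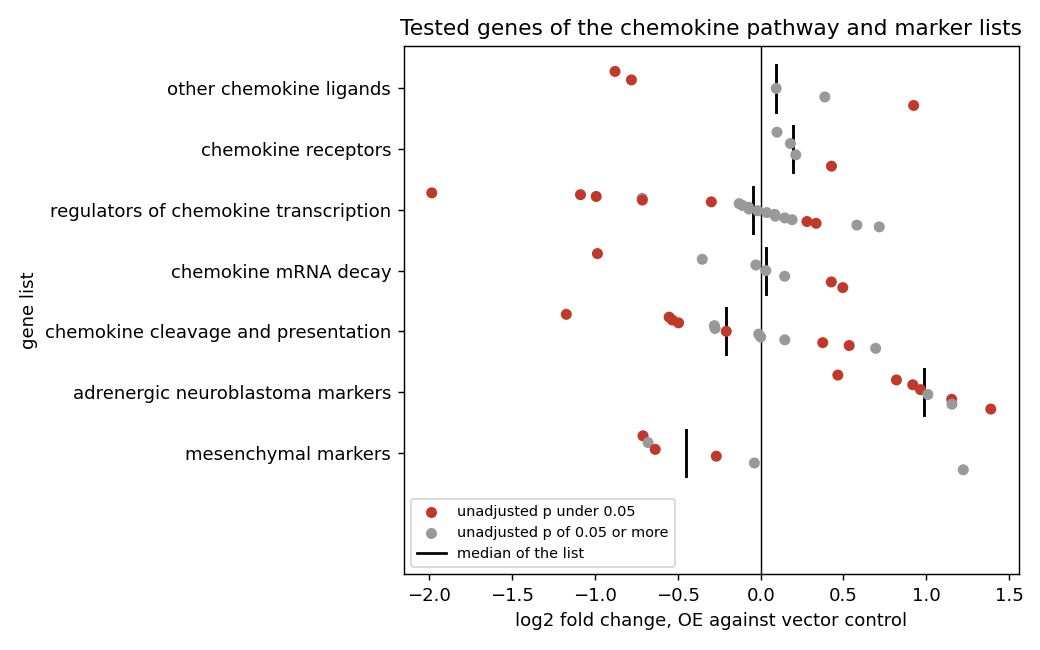
Log2 fold change of OE against vector control for each tested gene of 7 gene lists (points, red at an unadjusted p under 0.05), with the median of each list as a black bar. The adrenergic markers all lie above 0 with a median of 0.99, whereas the regulators of chemokine transcription spread on both sides with a median of −0.04.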

How the data were processed

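The deposited values are raw counts for each Ensembl transcript, made by the authors after quality control (FastQC), trimming (Trimmomatic) and alignment to hg19 (Bowtie2). The submitters' processing notes also name Bowtie2 2.0.4, Picard 2.21.6, StringTie 2.1.6 and DESeq2. The counting tool, the annotation release and the use of strand are not given in the sources used here.

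Counts of 196520 transcripts were summed per gene, and 31393 genes had at least 1 count. Genes kept by filterByExpr were TMM-normalized and tested with edgeR 4.0.16 (R 4.3.3) by its quasi-likelihood test with Benjamini-Hochberg adjustment over 20528 genes, 2 libraries against 2, with no covariates. The standard error is the fold change divided by the root of F. Alternatives were DESeq2 1.42.0, voom of limma 3.58.1, RLE and upper-quartile scaling, filters of at least 1 count in total or a mean of 10 counts, the transcript with the highest mean count, a replicate block, an adjusted p under 0.05, and leaving out each library. The scripts were tested on simulated data with large fold changes and a spread set below the common dispersion of these data (0.122). That checks the code and not how the tests perform on these libraries. Groups came from the treatment labels.

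The 10 genes and the lists were chosen with earlier results of these data known. In each list, genes at an unadjusted p under 0.05 were to be named. Others were named after their values were seen. Some genes of the lists are counted but not reported here by name. Positions and lengths are from a lifted GENCODE annotation for GRCh37, with *CCL5* matched by symbol. Transcripts were aligned with Biopython 1.88. Limits from 0 counts cover counting error only.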

Additional observations from a re-analysis of the deposited data

How the results depend on the processing

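The number of chemokine genes meeting the study's thresholds was 0 with edgeR and 6 with DESeq2, and 3 with edgeR at an adjusted p under 0.05. Over all genes, the number was 0 with edgeR and with limma-voom, 1800 with DESeq2 (893 higher, 907 lower), 9 with a minimum of 1 count in total (31393 genes tested) and 1 with the top transcript of each gene. With DESeq2, 4 chemokine genes were lower at an unadjusted p under 0.05 in place of 2, and 3 were with limma-voom and with the top transcript. The share of all tested genes at that p was taken only for the main edgeR fit (10.1% higher, 10.7% lower). Counts at that p from every other fit, here and below, therefore have no share beside them and are not read as a result about these genes. The log2 fold changes that passed with DESeq2 were −0.68 for *CCL2*, 2.05 for *CCL5*, 0.62 for *CX3CL1*, −0.81 for *CXCL1*, 3.16 for *CXCL10* and 2.23 for *CXCL11*. The adjusted p of *CCL5* ran from 3.53e-67 (DESeq2) to 0.277 (edgeR, replicate block) over the alternatives. The fold change of *IL8* ran from −0.0115 (without OE replicate 2) to 0.0393 (without OE replicate 1) with 1 library left out, and was −0.00694 without vector control replicate 2. Its change of sign lies within its error. With 1 library left out, the numbers of called, higher and lower chemokine genes were 0, 4 and 2 each time.

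Same-numbered replicates did not deviate together (correlation −0.0216 across genes), so the numbers were not taken to pair the libraries. With a replicate block, 0 chemokine genes were called, 4 were higher and 3 were lower at an unadjusted p under 0.05, and *CCL5*, *CCL2* and *CXCL1* had adjusted p of 0.277, 0.296 and 0.296 (edgeR), so their calls at 0.05 were lost. The median of all tested genes was 0.01 with TMM and 0.05 with upper-quartile scaling, which turned the split of higher and lower regulators from 9 and 11 to 10 and 10, of the decay genes from 4 and 3 to 5 and 2, of the cleavage and presentation genes from 5 and 8 to 6 and 7 and of the mesenchymal markers from 1 and 5 to 2 and 4, and no fold direction of a chemokine gene. Depth limits *CXCL10*, *CXCL11* and *CXCL12*, with 9 to 188 counts per library, and the 2 libraries per group limit all tests.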
